A study of Mus musculus with 7 samples.

Results

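Metallothioneins and zinc transporters were read in mouse embryonic fibroblasts (MEFs) under stress as 6 genes chosen by name, Mt1, Mt2, Mtf1, Slc30a1, Slc39a10 and Slc39a14, out of 49382 genes in the expression table. All 6 had a mean of at least 2 TPM (transcript abundance corrected for length and scaled to 1000000 in each library) over the libraries, as did 12909 genes in all, which are called kept genes below. RNA-seq covered 7 libraries of wild type primary MEFs, 1 for each group. The groups were untreated control cells, cells without glucose, without glutamine or in 0.1% oxygen (hypoxia) for 10 h, cells with 1 μM thapsigargin for 10 h (ER stress), and cells with 10 μM NaAsO2, sodium arsenite, (oxidative stress) or 100 mM NaCl (osmotic stress) for 3 h. Such MEFs are a mixed culture grown from minced embryos without head and liver and expanded over several passages. The study's general methods sort MEFs against macrophage surface proteins unless stated otherwise, the labels of these libraries name no sort, and no incubation time is given for the control. No group had a replicate, so no difference could be set against the spread between cultures, no p-value is given, and treatment cannot be told apart from other differences between single libraries.

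Zinc is bound in the cytosol by metallothioneins, small proteins rich in cysteine that also bind copper, cadmium and arsenic. MTF-1, the product of Mtf1, is a zinc finger transcription factor that senses free zinc and binds metal response elements, short DNA motifs near metallothionein genes and Slc30a1. SLC30 transporters move zinc out of the cytosol, across the cell surface or into organelles, and SLC39 transporters move it in. Slc30a1 encodes the ZnT1 exporter of the cell surface. Slc39a10 encodes the importer ZIP10, known as a gene that MTF-1 can repress, and Slc39a14 encodes ZIP14, an importer of zinc, iron and manganese. Arsenite reacts with thiol groups such as those of cysteine.

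Mt2 and Mt1 lie side by side on chromosome 8 of GRCm38, on the plus strand. Mt2 (ENSMUSG00000031762) spans 94172664 to 94173568 and Mt1 (ENSMUSG00000031765) spans 94179082 to 94180327, with 5513 bases between them. Slc30a1 (ENSMUSG00000037434) spans 191906767 to 191913247 on the plus strand of chromosome 1. Their promoter windows are shown because these are the 3 genes that rose in arsenite (below) and each window holds the core of the metal response element, spelled TGCACNC or TGCGCNC and searched on both strands. The sequences are from RefSeq (GRCm38.p6), each of 300 bases at chr8:94178839-94179138 (Mt1), chr8:94172368-94172667 (Mt2) and chr1:191906531-191906830 (Slc30a1), all on the plus strand, with the core matches in capitals.
Mt1: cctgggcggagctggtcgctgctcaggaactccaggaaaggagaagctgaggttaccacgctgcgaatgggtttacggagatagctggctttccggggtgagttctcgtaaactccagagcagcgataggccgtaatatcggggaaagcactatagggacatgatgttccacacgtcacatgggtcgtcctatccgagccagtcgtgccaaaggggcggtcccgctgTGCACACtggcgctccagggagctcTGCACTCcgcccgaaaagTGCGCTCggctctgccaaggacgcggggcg
Mt2: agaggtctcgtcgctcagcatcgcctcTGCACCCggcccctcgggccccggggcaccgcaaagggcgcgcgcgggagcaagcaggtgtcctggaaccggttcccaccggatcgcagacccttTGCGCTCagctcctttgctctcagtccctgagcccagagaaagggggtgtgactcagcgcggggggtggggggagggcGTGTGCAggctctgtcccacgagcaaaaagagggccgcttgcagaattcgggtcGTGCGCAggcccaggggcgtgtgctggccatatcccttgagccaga
Slc30a1: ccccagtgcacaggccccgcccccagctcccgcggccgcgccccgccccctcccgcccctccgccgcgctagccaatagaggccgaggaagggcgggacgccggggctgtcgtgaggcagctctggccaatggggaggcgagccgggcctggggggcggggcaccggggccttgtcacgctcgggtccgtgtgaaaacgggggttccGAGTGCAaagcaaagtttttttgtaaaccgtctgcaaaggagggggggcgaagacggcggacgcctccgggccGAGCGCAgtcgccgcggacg

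The Mt1 window held 3 matches, beginning at -23, 3 and 21 from the RefSeq start, all on the strand of the gene. The Mt2 window held 4, beginning at -223, -128, -50 and 5, the last 2 on the other strand. The Slc30a1 window held 2, at -43 and 31, both on the other strand. Of 32851 such windows in the genome, 25.7% held at least 1 match, 7.11% at least 2, 1.97% at least 3 and 0.517% at least 4. The metallothionein genes Mt3 and Mt4, at 1.35 and 0 TPM with arsenite (below), also had 1 match each in their windows. The window of Mtf1 (chr4:124802299-124802598) held 0 matches, as did both windows of Slc39a10 (chr1:46853569-46853868 and chr1:46925727-46926026). The annotated starts of both genes, from the spans given below, lie outside these windows, which follow RefSeq starts. The 0 says only that these letters are not in those 300 bases. The core of the antioxidant response element, TGACNNNGC, was found in the windows of Mt2 and Slc30a1, 1 match each, and in 12.4% of all windows. That of the hypoxia response element, ACGTG or GCGTG, was found in the windows of Mt1 (2 matches), Mt2 (2) and Slc30a1 (1). Of all windows, 43.8% held at least 1 such match and 20.6% at least 2. In the Mt2 window 1 hypoxia core overlapped a metal core, and in the Slc30a1 window the hypoxia core overlapped the antioxidant core. A match is a run of letters and not a measured binding site. For every gene, bases outside the window were not searched, so a core missing from a window may lie beyond it.

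**Figure D1:**
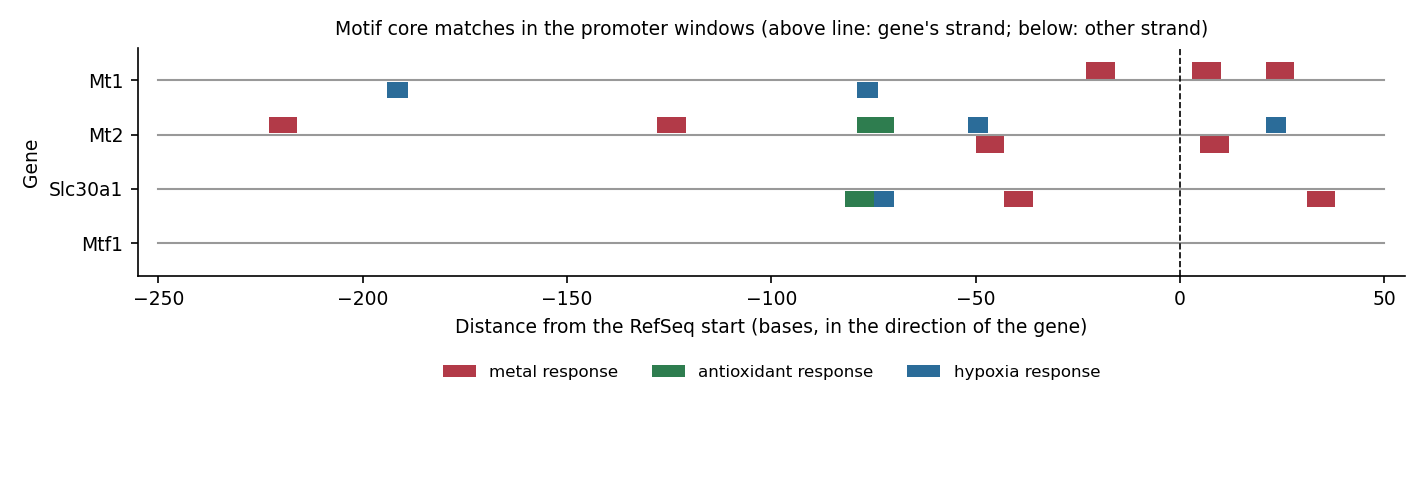
Matches to the motif cores in the promoter windows of Mt1, Mt2, Slc30a1 and Mtf1, drawn to scale by distance from the RefSeq start in bases, with matches on the strand of the gene above each line and those on the other strand below it. The Mt1 window shows 3 metal response cores, the Mt2 window 4, the Slc30a1 window 2 and the Mtf1 window 0.

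Arsenite moved 4 of the 6 genes by more than 2-fold against the control, the most in any condition. Mt1, Mt2 and Slc30a1 rose and Slc39a10 fell, so that RNA for both zinc-binding proteins and for the exporter was higher and RNA for 1 of the 2 importers was lower. A gene counts as risen or fallen when its log2(TPM + 1) differs from the control by more than 1, a 2-fold change on this scale, and of all kept genes 3.94% rose and 4.85% fell under arsenite. Centred on the median of kept genes, the 508 that rose and 626 that fell became 613 and 413, and the same 4 members passed. The arsenite library also had the highest share of mitochondrially encoded RNA of the 7, at 9.25% of TPM against 6.37% in the control and 5.09 to 7.58% in the others, and the same 4 passed with those genes left out of the total. The other conditions moved fewer members. Both metallothioneins rose in hypoxia, Mt2 and Slc39a14 rose in ER stress, Slc30a1 fell in osmotic stress, and none of the 6 passed 2-fold in glucose depletion, where 1.83% of kept genes rose and 2.41% fell, or in glutamine depletion, where 3.21% rose and 3.21% fell. The median log2 change over kept genes was -0.16 in oxidative and -0.12 in osmotic stress, and within 0.1 of 0 in the other conditions. All 6 comparisons share the control library.

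**Figure D2:**
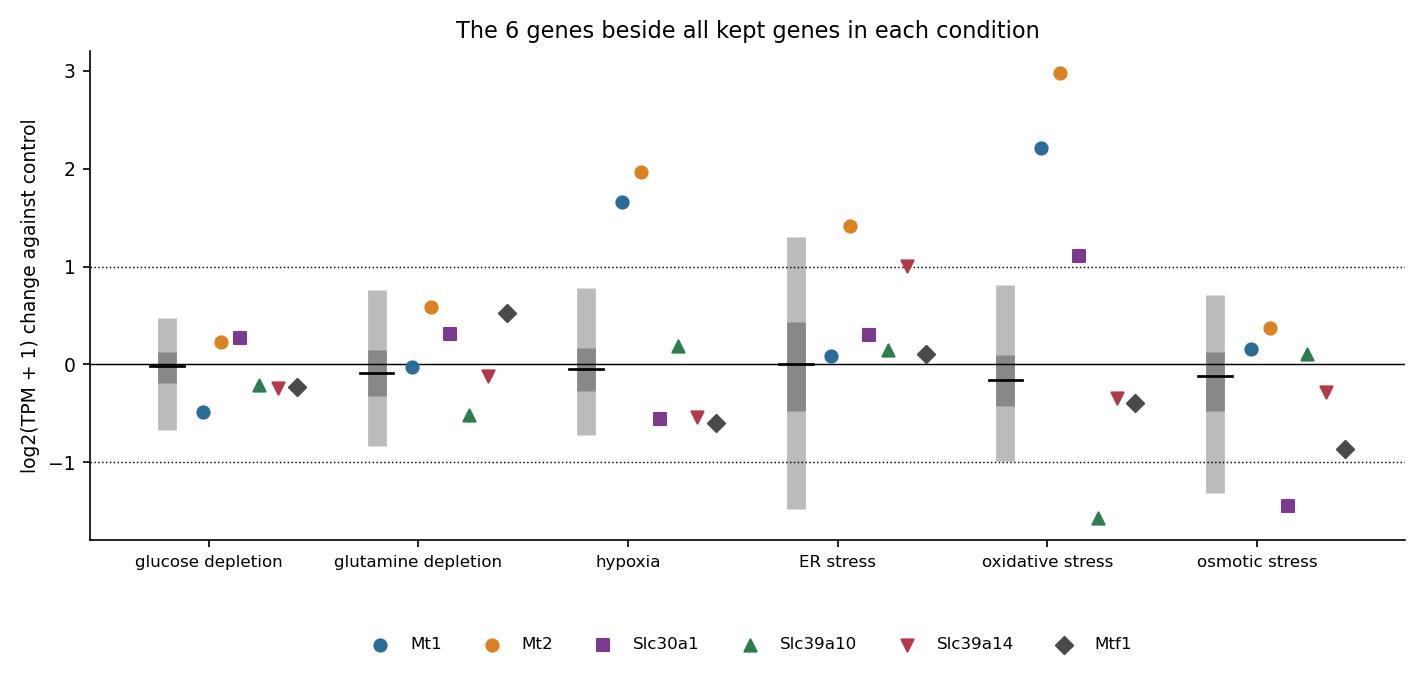
Change in log2(TPM + 1) against the control for the 6 genes (coloured points) in each condition, beside all kept genes, for which the light bar runs from the 5 to the 95 percentile, the dark bar from the 25 to the 75 percentile and the black tick marks the median; dotted lines mark 2-fold. Mt2 is the highest member in hypoxia, ER stress and oxidative stress, at 1.96, 1.41 and 2.98, and Slc39a10 is the lowest in oxidative stress, at -1.57.

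Mt1 was at 342 TPM in the control library, 243 in glucose depletion, 335 in glutamine depletion, 1085 in hypoxia, 362 in ER stress, 1585 in oxidative stress and 382 in osmotic stress. Thus 5 libraries lay between 243 and 382 TPM, and the libraries of hypoxia and oxidative stress stood above them. Against the control, Mt1 was 4.63-fold higher in oxidative stress (log2 change 2.21) and 3.17-fold higher in hypoxia (1.66). Of the kept genes, 1.72% had a higher log2 change than Mt1 in oxidative stress and 2.01% in hypoxia.

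Mt2 started lower and went further. Its level was 168 TPM in the control, 197 in glucose depletion, 253 in glutamine depletion, 659 in hypoxia, 449 in ER stress, 1333 in oxidative stress and 217 in osmotic stress. The control was the lowest of the 7 libraries, and arsenite the highest, 2.02-fold above hypoxia, the next. Mt2 was 7.93-fold higher than the control in oxidative stress (log2 change 2.98), 3.92-fold in hypoxia (1.96) and 2.67-fold in ER stress (1.41). In hypoxia 3.57% of kept genes rose past 2-fold and 2.64% fell. In ER stress 8.60% rose and 11.0% fell, the highest shares of the 6 conditions. Set against the median of the other 6 libraries in place of the control, the log2 change of Mt2 in ER stress was 0.94, inside 2-fold.

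The 2 metallothioneins parted in ER stress. With thapsigargin Mt1 was at 1.06-fold of the control while Mt2 passed 2-fold, and Mt2 exceeded Mt1 in that library alone. The ratio of Mt2 to Mt1 within a library does not depend on how libraries are scaled. It was 0.492 in the control, 0.811 in glucose depletion, 0.755 in glutamine depletion, 0.607 in hypoxia, 1.24 in ER stress, 0.841 in oxidative stress and 0.569 in osmotic stress. The control had the lowest ratio of the 7 libraries, so Mt2 was higher relative to Mt1 in every treated library. The genes are paralogs, and reads that match both were divided between them by the quantification.

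Together, Mt1 and Mt2 took 510 TPM of the control library and 2918 TPM of the arsenite library, a 5.72-fold difference (log2 change 2.51). In hypoxia the sum was 1744 TPM, 3.42-fold above the control. In the other conditions it lay between 440 TPM (glucose depletion) and 811 TPM (ER stress). By level, Mt1 ranked 457 among all genes in the control and 82 in oxidative stress, and Mt2 moved from rank 949 to rank 112. The other metallothioneins of the cluster were near or at 0. Mt3, best known from brain, lay between 0 and 1.35 TPM, and Mt4, best known from squamous epithelia, was listed at 0 in all 7 libraries. The highest value of Mt3 was that with arsenite, against 0.360 TPM in the control (log2 change 0.79). Its mean was too low for it to be a kept gene.

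**Figure D3:**
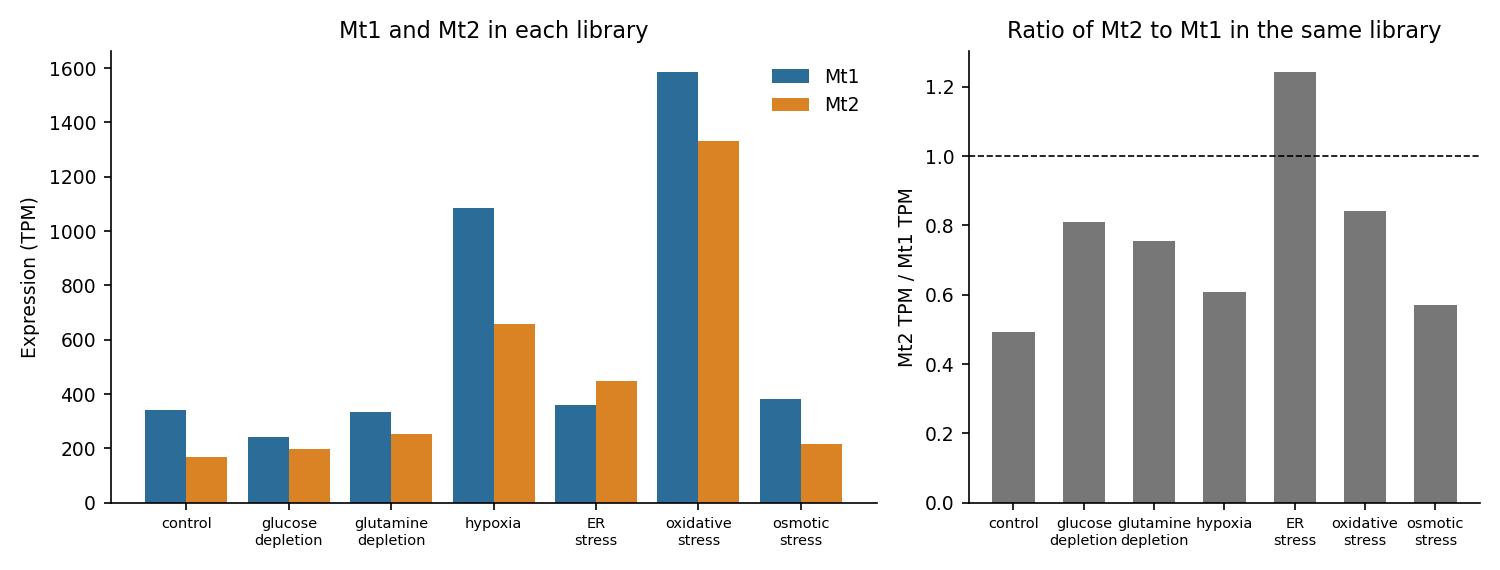
Left, expression of Mt1 and Mt2 in TPM in each of the 7 libraries; right, Mt2 TPM divided by Mt1 TPM in the same library, with a dashed line at equal levels. Each bar is 1 library. Both genes are highest in oxidative stress, at 1585 and 1333 TPM, and the ratio passes 1 in ER stress, where it is 1.24.

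Mtf1 (ENSMUSG00000028890, chromosome 4, 124802104 to 124849800, plus strand), which encodes the zinc sensor itself, stayed within 2-fold of the control in all 6 conditions. It was at 11.3 TPM in the control, 9.52 in glucose depletion, 16.7 in glutamine depletion, 7.11 in hypoxia, 12.3 in ER stress, 8.34 in oxidative stress and 5.75 in osmotic stress. The 2 libraries with the highest metallothionein levels held less Mtf1 RNA than the control, with log2 changes of -0.40 in oxidative stress and -0.60 in hypoxia. So did the libraries of glucose depletion (-0.23) and osmotic stress (-0.87, the furthest value), where neither metallothionein passed 2-fold. Of all kept genes, 66.0% were below the control in oxidative stress and 55.5% in hypoxia. RNA levels do not show the activity of MTF-1, which is regulated largely through zinc binding and its entry into the nucleus.

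Slc30a1, the exporter, was the least abundant of the 6 genes by mean level. Its highest TPM was 14.4-fold its lowest, the widest ratio of the 6, and rests on a lowest value of 0.577 TPM. On the log2(TPM + 1) scale Mt2 ranged further, by 2.98 against 2.56. Slc30a1 was at 3.32 TPM in the control, 4.20 in glucose depletion, 4.34 in glutamine depletion, 1.92 in hypoxia, 4.31 in ER stress, 8.28 in oxidative stress and 0.577 in osmotic stress. Arsenite gave the highest level, 1.91-fold above the next library, and NaCl the lowest. Its log2 change was 1.10 in oxidative stress, where 3.42% of kept genes had a higher value. In osmotic stress it was -1.45, and 4.12% of kept genes had a lower value. Among kept genes 3.08% rose and 8.76% fell by more than 2-fold in osmotic stress. In hypoxia, where both metallothioneins rose, its log2 change was -0.56.

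At these levels the pseudocount of 1 TPM weighs on the value. With 5 TPM in its place the log2 change of Slc30a1 was 0.68 in oxidative and -0.58 in osmotic stress, both inside 2-fold, and with the median of the other 6 libraries as the reference it was 0.97 in oxidative stress. The table lists the symbol under 2 identifiers, equal in value in all 7 libraries, and 1 of them is in the annotation used here. Whether the file repeats a value or splits it between the identifiers is not known, and if split, the TPM of Slc30a1 given here would be too low, the sums being 6.63 TPM in control cells, 16.6 TPM with arsenite and 1.15 TPM with NaCl. On the log2 scale the sum gave 1.20 in oxidative and -1.83 in osmotic stress, a comparison added after seeing the data.

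The importers split. Slc39a10 (ENSMUSG00000025986, chromosome 1, 46807544 to 46892852, minus strand) was at 22.9 TPM in the control, 19.6 in glucose depletion, 15.7 in glutamine depletion, 26.3 in hypoxia, 25.4 in ER stress, 7.07 in oxidative stress and 24.7 in osmotic stress. The arsenite library was the lowest and stood apart from the other 6, which ran from 15.7 to 26.3 TPM. The fall in oxidative stress was 3.25-fold (log2 change -1.57), and 1.65% of kept genes had a lower value. No other condition passed 2-fold for this gene.

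Slc39a14 (ENSMUSG00000022094, chromosome 14, 70303469 to 70351425, minus strand) followed another order. It was at 45.8 TPM in the control, 38.5 in glucose depletion, 42.2 in glutamine depletion, 31.2 in hypoxia, 92.6 in ER stress, 35.8 in oxidative stress and 37.5 in osmotic stress. The thapsigargin library was the highest and the other 6 ran from 31.2 to 45.8 TPM. Its log2 change in ER stress was 1.00, just past the 2-fold line, and 8.59% of kept genes had a higher value. It fell just inside 2-fold, at 0.98, when mitochondrially encoded genes were left out of the total. In oxidative stress the log2 change was -0.35.

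**Figure D4:**
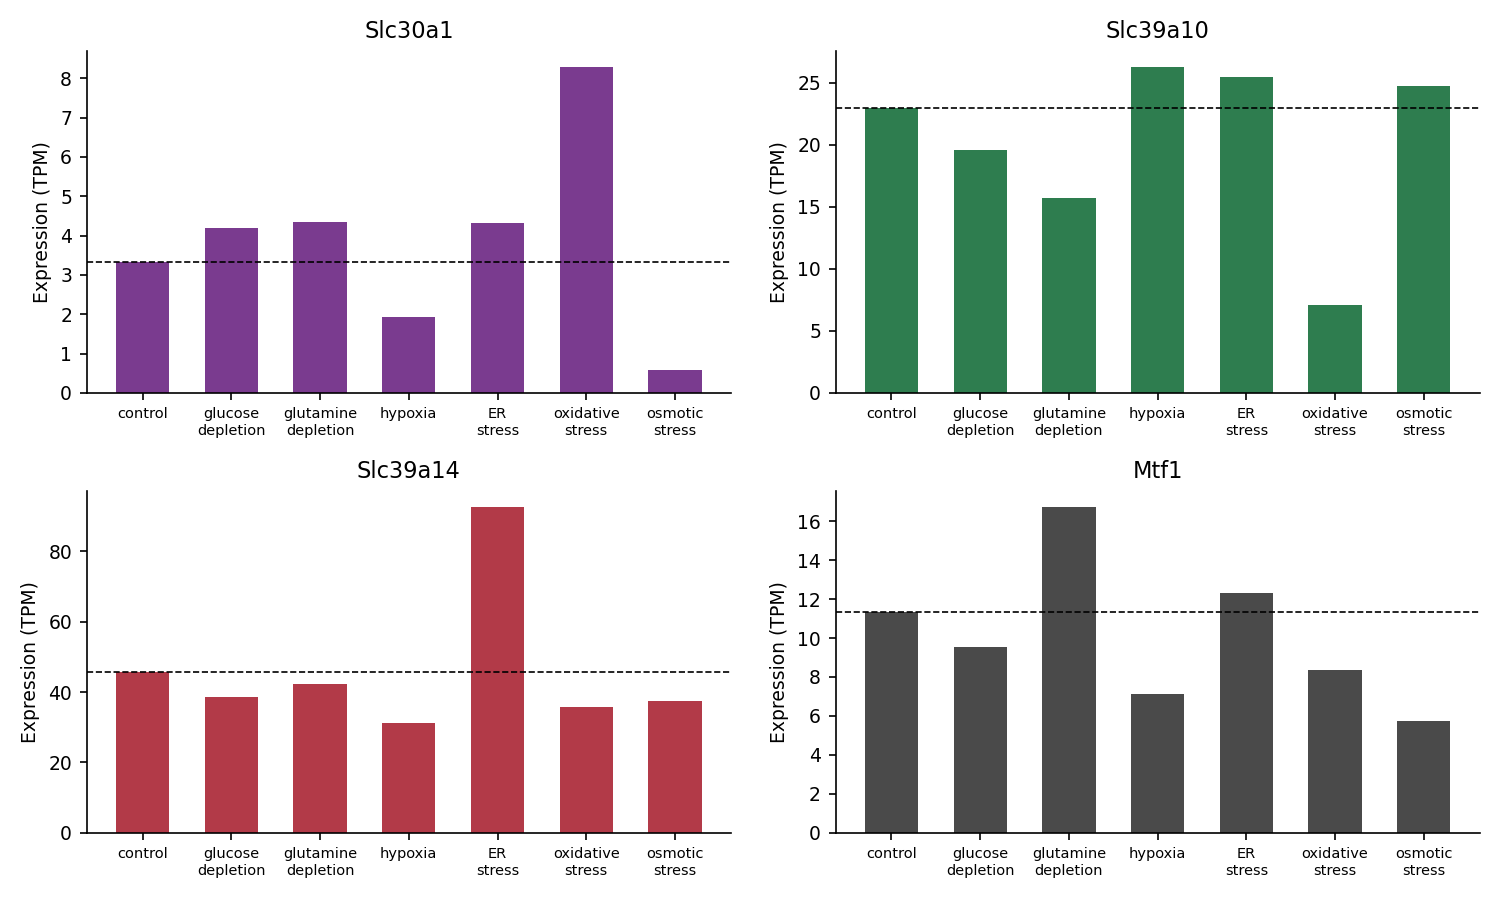
Expression in TPM of Slc30a1, Slc39a10, Slc39a14 and Mtf1 in each of the 7 libraries, 1 bar a library, with the control level as a dashed line and a separate scale for each gene. Slc30a1 is highest (8.28 TPM) and Slc39a10 lowest (7.07 TPM) in oxidative stress, and Slc39a14 is highest (92.6 TPM) in ER stress.

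Oxidative and osmotic stress both lasted 3 h, so these libraries can be compared at a matched time without the control. The arsenite library was higher than the NaCl library for Mt1 by 2.05 (difference of log2(TPM + 1)), for Mt2 by 2.61 and for Slc30a1 by 2.56. Slc39a10 was lower by it, at -1.67. These 4 genes passed 2-fold in this comparison, while Mtf1 (0.47) and Slc39a14 (-0.07) did not. Among kept genes, 7.86% were higher and 3.90% lower in the arsenite library by more than 2-fold. In TPM, Slc30a1 was at 8.28 against 0.577, and this difference holds both its rise in one library and its fall in the other.

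Genes of 2 other stress programs were read beside the 6. Of 7 antioxidant genes, which are induced by oxidants (Hmox1, Nqo1, Gclc, Gclm, Srxn1, Txnrd1 and Slc7a11), 6 rose with arsenite, 3 in ER stress, 2 in glutamine depletion and none in the other conditions. Their median log2 change was 1.63 in oxidative stress and -0.14 in hypoxia. Of 6 heat shock genes (Hspa1a, Hspa1b, Hspb1, Dnajb1, Hsph1 and Bag3), all rose in oxidative stress, with a median of 1.62, and 2 in osmotic stress. Of all kept genes, 3.94% rose in oxidative stress, 8.60% in ER stress, 3.21% in glutamine depletion and 3.08% in osmotic stress. In hypoxia, where Mt1 and Mt2 rose, none of these 13 genes passed 2-fold, beside 6.21% of all kept genes. Hmox1, the heme oxygenase that arsenite strongly induces, had a log2 change of 0.90 in hypoxia. With thapsigargin all 6 members were above the control, as were 49.9% of kept genes, and only Mt2 and Slc39a14 passed 2-fold. In that library 3 of the heat shock genes fell past 2-fold, as did 11.0% of kept genes. The part of these programs in the metallothionein values was not tested.

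In the 2 families of zinc transporters, 16 of 24 genes were kept, 6 of 10 SLC30 genes and 10 of 14 SLC39 genes. The other 8 stayed at or below 1.10 TPM in every library. Slc39a7, which encodes a zinc channel of the ER, was the most abundant kept transporter, with a mean of 243 TPM, and Slc39a8 the least, with 2.78 TPM. With arsenite 3 of the 16 passed 2-fold, namely Slc30a1, Slc39a10 and the importer Slc39a3, which went from 15.6 to 6.94 TPM (log2 change -1.06), where 8.78% of all kept genes passed in either direction. The median log2 change of the 10 importers was -0.36 in oxidative stress and that of the 6 exporters -0.16, against -0.16 over all kept genes. Of the 10 importers 9 were below the control there, as were 66.0% of all kept genes, and 9 were also below it in glutamine depletion, with 60.0% of all kept genes.

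In ER stress 2 of the 16 passed 2-fold, Slc39a14 and Slc30a4, an exporter of intracellular vesicles, a smaller share than the 19.6% of all kept genes. From 13.1 TPM in control cells Slc30a4 went to 45.4 TPM with thapsigargin (a log2 change of 1.72), and it lay between 12.0 and 19.1 TPM in the other conditions. All 6 exporters were above the control in ER stress, as were 49.9% of all kept genes. The median log2 change of these exporters was 0.50, against 0.00 over all kept genes. Slc30a5 and Slc30a6, whose products pair to load zinc into the secretory pathway, were at 0.92 and 0.68, and Slc39a7 at 0.70, all inside 2-fold. Of the importers, 6 were above the control and 4 below. In osmotic stress 1 of the 16 passed, Slc30a1, against 11.8% of all kept genes. In hypoxia, glucose depletion and glutamine depletion none did, against 6.21%, 4.24% and 6.41%. In hypoxia the 10 importers had a median of -0.28 and the 6 exporters of -0.13. The symbol Slc30a4, like Slc30a1, is listed under 2 identifiers of equal value and was counted once. If its value were split between them, its level would be 26.2 TPM in control cells and 90.9 TPM with thapsigargin, a log2 change of 1.75 (a sum added after seeing the data).

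**Figure D5:**
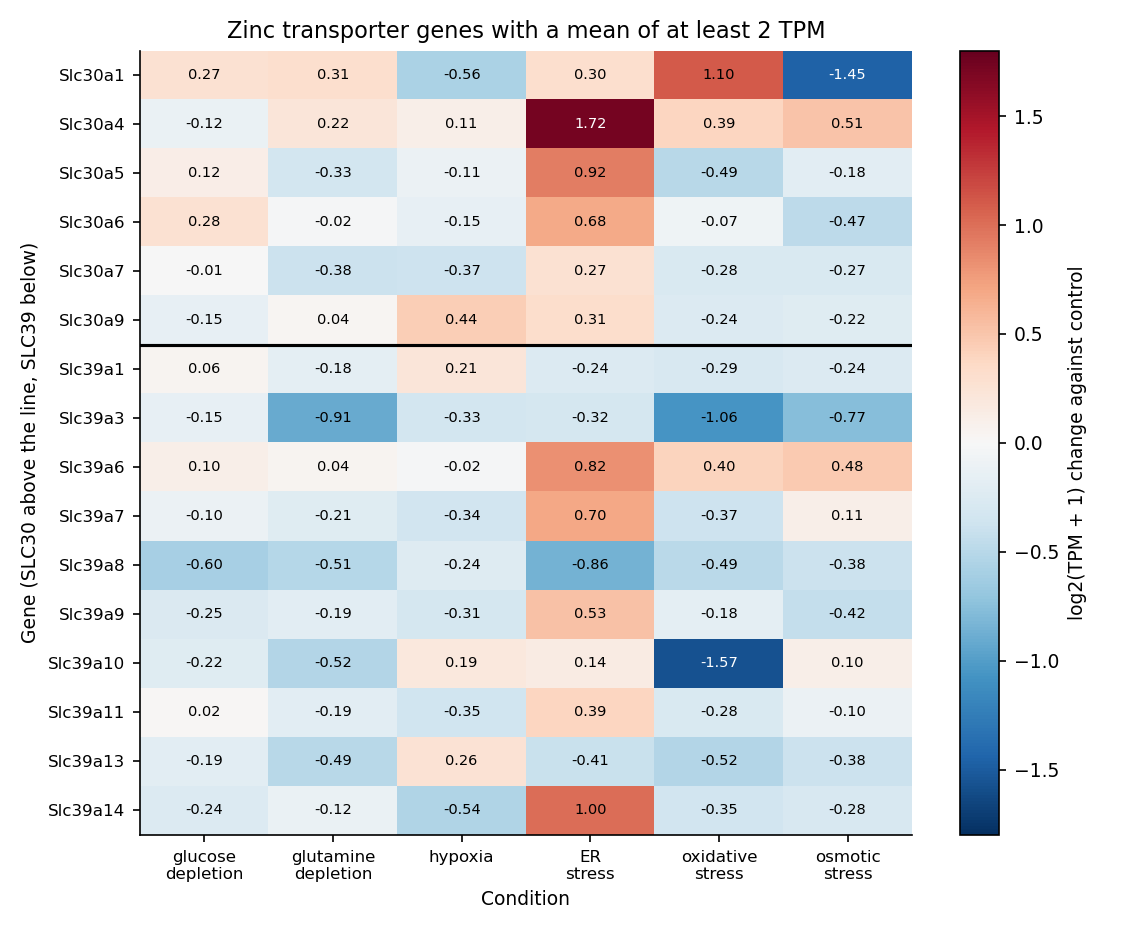
Change in log2(TPM + 1) against the control of the 16 kept zinc transporter genes (rows, SLC30 above the line and SLC39 below) in the 6 conditions (columns), with the value in each cell and red for higher, blue for lower. The values past 1 or -1 are those of Slc30a1, Slc39a10 and Slc39a3 in oxidative stress, Slc30a4 and Slc39a14 in ER stress, and Slc30a1 in osmotic stress.

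The genes whose levels ran most like those of a member were taken by Pearson r of log2(TPM + 1) over the 7 libraries, among 6756 kept genes that spanned at least 2-fold. Over 7 libraries, with 1 or 2 high values each, such r are a description only. For Mt1 the first was Nnat (r = 0.98), which went from 3.15 TPM in the control to 6.23 in hypoxia and 9.52 in oxidative stress. For Mt2 it was the noncoding RNA Snhg14 (0.96), at 3.35 TPM in the control, 13.8 in ER stress and 37.5 in oxidative stress. For Slc39a14, Cherp (0.996) was first, and 106 genes had an r above 0.95, against 12 for Mt1 and 1 for Mt2. March7 (0.99) was first for Slc30a1 and Zcchc10 (0.96) for Mtf1.

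Markers of the labelled cell type were present. All 8 fibroblast markers were at 22.6 TPM or more in every library, and Col1a1 lay between 1740 and 3629 TPM. Alb and Hbb-bt, of liver and red cells, were at 0 in all libraries, while Hba-a1 and Afp of the same list were at 0.503 and 0.322 TPM in the arsenite library and at 0 in the other 6. Ptprc, Adgre1, Epcam and Krt5, of leukocytes, macrophages and epithelia, reached at most 0.280 TPM. Of the same lists, Cd68 lay higher, between 5.26 and 9.77 TPM, and Csf1r, Lyz2 and Cdh1 reached 2.25, 2.23 and 0.546 TPM. The sum of 5 macrophage and leukocyte markers lay between 6.76 and 13.7 TPM, that of 3 endothelial markers between 2.14 and 5.37 TPM, and those of 3 epithelial and 4 liver and red cell markers at or below 0.825 TPM. In the ER stress library, where Slc39a14 and Slc30a4 were highest, the sum of 3 neural markers was 128 TPM, nearly all of it Tubb3, against 25.6 to 40.4 TPM in the other libraries. There the fibroblast markers summed to 6160 TPM against 10229 to 12781 TPM elsewhere. The part of these shifts in the ER stress values was not tested. Because all libraries are bulk RNA, a change in the makeup of the culture and a change of RNA per cell cannot be told apart.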

How the data were processed

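RNA of MEFs was sequenced by the authors from stranded mRNA libraries, 1 for each of 7 groups. Per the methods and the submitters' processing notes, reads were quantified with Kallisto 0.43.1 at default settings against the GRCm38 cDNA set of Ensembl release 90, and the authors summed TPM by gene, the values they deposited. TPM sum to 1000000 in each library and keep no read count, so the depth is unknown and no counting interval can be given.

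Groups were taken from the treatment labels. The control value of log2(TPM + 1) was subtracted from that of each condition, and a change of more than 2-fold was counted among the 12909 genes averaging 2 TPM or more. The study's own methods set this pseudocount and threshold. With 1 library per group there is no test. For a symbol on 2 rows, the row whose identifier is in GENCODE M21 was used. Promoter windows run from 250 bases before to 50 after the RefSeq start, and Slc39a14 was not searched. The genes and lists were chosen with earlier results of these data known. By rule, the genes named are the 6 members, Mt3 and Mt4, genes of the lists past 2-fold in a condition, and those most alike by r, of which that for Slc39a10 is not reported here. Slc30a5, Slc30a6, Slc39a7, Slc39a8, Atp7a, Slc31a1 and Slc31a2, inside 2-fold, were named after their values were seen. Steps were tested on simulated data. The work ran in Python 3.11.15 with pandas 2.3.3, numpy 2.4.6 and, for figures, matplotlib 3.10.9.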

Additional observations from a re-analysis of the deposited data

How the results depend on the processing

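No paired analysis was possible because each group is 1 library, and for the same reason no library could be left out. Of 198 alternative values of the 6 genes, 0 changed the sign of a change past 2-fold and 7 brought one inside it, which were those of Mt2 and Slc39a14 in ER stress and of Slc30a1 in oxidative and osmotic stress. Those not given above are Mt2 in ER stress summed with Mt1 (0.67) and Slc39a14 in ER stress with 5 TPM (0.94). Mt1 and Mt2 in oxidative stress and hypoxia and Slc39a10 in oxidative stress stayed past 2-fold under every alternative that gives a value for them.

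The number of the 6 genes past the threshold in ER stress, 2 as reported, was 1 with a pseudocount of 5 TPM (Mt2), without mitochondrially encoded genes (Mt2) or against the median of the other 6 libraries (Slc39a14), and 0 at 3-fold. In oxidative stress it was 4, 3 without Slc30a1 with 5 TPM, against the median of the other 6 libraries or with a mean of at least 10 TPM, and 2 at 3-fold (Mt1 and Mt2). In osmotic stress it was 1, and 0 with 5 TPM, at 3-fold or with a mean of at least 10 TPM, which removes Slc30a1, and 2 at 1.5-fold, where Mtf1 joins.

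The share of kept genes past 2-fold in either direction was 4.24% in glucose depletion, 6.41% in glutamine depletion, 6.21% in hypoxia, 19.6% in ER stress, 8.78% in oxidative stress and 11.8% in osmotic stress. In the same order, it was 2.61, 3.35, 3.88, 11.8, 4.49 and 5.17% with 5 TPM and 9.7, 18.1, 15.3, 40.2, 23.5 and 26.1% at 1.5-fold. At 3-fold it was 2.88% in glutamine depletion, 3.59% in hypoxia, 7.69% in ER stress, 3.9% in oxidative stress and 5.02% in osmotic stress. With no filter it was 2.45, 2.95, 3.1, 7.2, 3.88 and 4.96%, and with a mean of at least 10 TPM 1.79, 4.04, 3.48, 5.47 and 6.71% in all but ER stress. Centring on the median of kept genes moved no member across 2-fold. The cause of these shifts was not tested beyond what each alternative changes by construction.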

Other observations

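Among 14 other genes of metal handling, 13 were kept, and of these 1 passed 2-fold in oxidative stress, 1 in ER stress and none elsewhere, against 8.78% and 19.6% of all kept genes in those 2 conditions, so the ER stress share lies below that of all genes. Slc40a1, which encodes the iron exporter ferroportin, went from 3.67 TPM in the control to 9.21 TPM in oxidative stress (log2 change 1.13), the single gene of the list to pass 2-fold there, and was lowest in ER stress, at 1.60 TPM. Slc11a2, which encodes the iron and manganese importer DMT1, went from 34.1 to 77.9 TPM in ER stress (1.17), again the single gene of the list past 2-fold, and was between 22.2 and 31.0 TPM in the other conditions. Of the SLC39 importers, Slc39a14, which also carries iron and manganese, was at its highest level in that library. Slc39a8 was at its lowest there, at 1.79 TPM against 4.05 TPM in the control.

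Among the 13 kept genes of this list none passed 2-fold in hypoxia, where 6.21% of all kept genes did. Of the 4 listed copper transporters, 1 outside the kept genes passed it, where 3.1% of all genes did without the filter. Atp7b, a copper exporter best known from liver, was at 2.51 TPM in hypoxia and at or below 0.0366 TPM in the other 6 libraries, with a mean under 2 TPM, so it is not among the kept genes. Its relative Atp7a was at 14.5 TPM in hypoxia and 7.71 TPM in the control (log2 change 0.83), and between 8.50 and 11.2 TPM in the other conditions. The copper importer Slc31a1 and its relative Slc31a2 were at -0.10 and 0.31 in log2 change in hypoxia. Metallothioneins bind copper as well as zinc, and no measurement of either metal was made in these libraries. With 1 library per condition none of these values has an estimate of error.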
